A study of Mus musculus with 5 samples.

Results

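Axons find their way by reading cues with receptors on the growth cone, and the receptors pass the signal to kinases and actin-binding proteins that turn, halt or extend the growing tip. Robo receptors read the Slit proteins, semaphorins act as cues that mostly repel, and the neurotrophin receptor TrkB reads BDNF. Many of these proteins are made in several forms by alternative splicing, so the same gene can give proteins with different cytoplasmic parts. The genes described here are 8 such receptors, ligands and effectors, Robo2, Ntrk2, Ptprk, Ptpru, Sema4d, Limk1, Evl and Dclk1. They were chosen by gene name from the authors' deposited table of alternative splicing events that changed after PQBP1 knockdown. Together they have 21 junctions in 10 events, of 1402 junctions in 585 events of 457 genes in that table.

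The study compared cultured cortical neurons given lentivirus with a PQBP1-targeting short hairpin RNA (2 samples) with neurons given a non-targeting hairpin (mock knockdown, 3 samples). PQBP1 is a nuclear protein that binds parts of the spliceosome. All neurons came from the cortex of C57BL/6 mouse embryos at E16.5 and were used on day 5 in vitro, and polyA RNA was sequenced. The labels speak of a single hairpin for each group. Nothing in them ties the samples of a group to separate cultures, and the spread behind the authors' p may then be technical.

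For each junction the table gives a log2 fold, knockdown over control, with the authors' p-value. It holds no counts and no value of any sample, so depth, replicate spread, gene levels and the level of Pqbp1 itself could not be examined, and the folds below carry no SD. The neuronal identity of the cultures could not be checked by levels either. None of the 25 marker symbols of astrocytes, the oligodendrocyte lineage, microglia, endothelium and progenitors has an event, against 2 of 8 neuron markers (Rbfox3 and Snap25), but an event is not a level. Every event in the table has a junction with a p under 0.05, so the events were already selected by p before deposit. The members were taken from that selection, and their folds are therefore a description with no test of their own.

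How the fold was computed is not stated. Each fold is read here as the change in a junction's use relative to the other junctions of its event. The junction that skips the alternative Robo2 exon gives a reason. It is listed in both Robo2 events, with a log2 fold of 1.16 in one and 0.79 in the other in the authors' deposited table. The junctions of an event share a donor (5' splice site) or an acceptor (3' splice site). In events with 2 junctions the change is given as the log2 ratio of the junction with the shorter intron (nearer) to the one with the longer intron (farther), in knockdown relative to control. For a cassette exon, which is either kept or skipped, a positive change means more inclusion.

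The sequences below are the coding parts of the messages that the events of 7 members add, remove or exchange. The Sema4d event lies outside the coding region and is given by position only. They were read from GENCODE M21 transcripts, on the mm10 assembly the table uses, and are written 5' to 3' on the gene's strand. In the cassette exons the capitals are the last 3 bases, which belong to the 5' splice site. In Ptpru the capitals are the bases between the competing donors. In the Ntrk2 ends the capitals are the stop codon, or the last 3 bases where the exon leads on to further coding exons.
Robo2 cassette exon, chr16:73933046-73933171, minus strand: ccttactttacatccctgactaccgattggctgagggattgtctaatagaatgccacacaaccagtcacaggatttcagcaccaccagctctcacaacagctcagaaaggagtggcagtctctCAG
Ptprk cassette exon, chr10:28554770-28554799, plus strand: gaggagctactactcttactcctactaCCT
Limk1 cassette exon, chr5:134662103-134662162, minus strand: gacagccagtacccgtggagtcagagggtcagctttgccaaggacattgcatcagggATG
Evl cassette exon, chr12:108683348-108683410, plus strand: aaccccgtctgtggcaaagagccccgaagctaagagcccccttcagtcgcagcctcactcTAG
Dclk1 cassette exon, chr3:55521850-55521923, plus strand: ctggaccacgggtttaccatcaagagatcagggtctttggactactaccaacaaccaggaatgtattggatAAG
Ptpru exon with competing donors, chr4:131780075-131780172, minus strand: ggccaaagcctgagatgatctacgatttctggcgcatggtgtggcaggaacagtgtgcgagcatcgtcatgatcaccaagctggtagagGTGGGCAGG
Ntrk2 end directly after the shared exon, chr13:58878339-58878424, plus strand: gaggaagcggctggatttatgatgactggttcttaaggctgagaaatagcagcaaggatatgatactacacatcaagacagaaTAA
Ntrk2 end of the truncated receptor, chr13:58932023-58932060, plus strand: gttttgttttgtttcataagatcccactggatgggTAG
Ntrk2 exon of the kinase form, chr13:58985802-58985990, plus strand: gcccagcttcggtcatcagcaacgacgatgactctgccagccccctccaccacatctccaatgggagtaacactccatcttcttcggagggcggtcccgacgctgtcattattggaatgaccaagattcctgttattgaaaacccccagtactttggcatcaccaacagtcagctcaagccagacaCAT

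**Figure D1:**
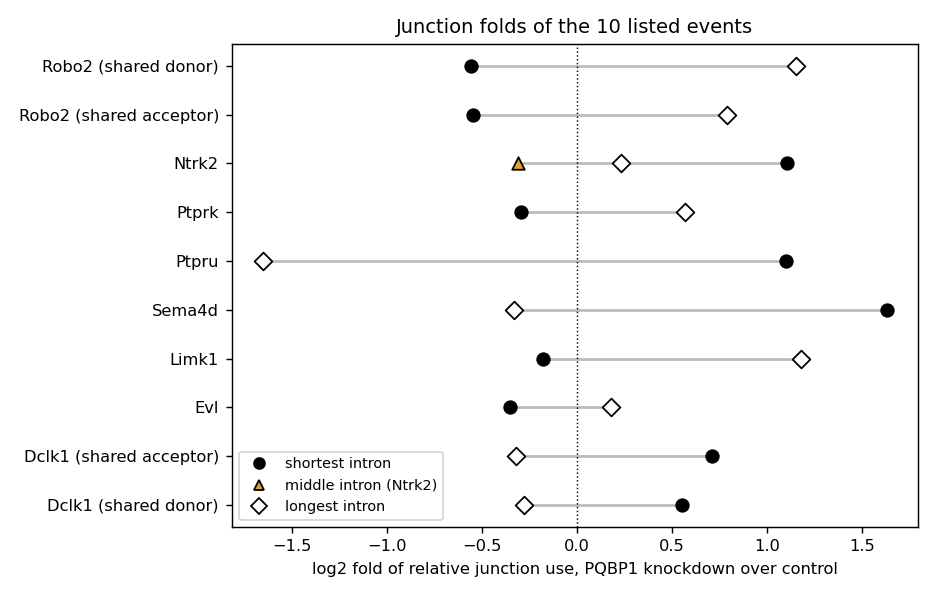
Authors' log2 fold, knockdown over control, for each junction of the 10 events, read as relative junction use. Circles are the junction with the shortest intron, diamonds the longest, and the triangle the middle junction of Ntrk2. In every row the junctions lie on both sides of 0, and use is read as relative within the event. The widest spread is that of Ptpru and the narrowest that of Evl.

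Among the receptors, Robo2 lost inclusion of a coding exon in its cytoplasmic part. Robo2 is a receptor through which Slit proteins repel axons. In the authors' deposited table the log2 fold was -0.56 for the junction from the upstream exon into the 126 nt exon and 1.16 for the junction that skips it (p = 1.79e-05). The inclusion ratio in knockdown was 0.305 times that in mock knockdown. The same exon is listed a second time from its downstream side, where the log2 fold was -0.55 for the inclusion and 0.79 for the skipping junction in the authors' deposited table (p = 0.00173), a ratio of 0.397 times. The estimates from the opposite sides of the exon thus differed by 0.38 on the log2 scale and had the same direction. They share the skipping junction and the samples, so they are not independent.

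The Robo2 exon is listed by p as the fourth of the 585 events. It is annotated in the full-length transcripts Robo2-203 and Robo2-210 and is absent from Robo2-202. Its length is a whole number of codons (42). In Robo2-203, a protein of 1508 residues, the exon touches residues 1046 to 1088. The most hydrophobic stretch of that protein, taken as its membrane span, is at residues 860 to 878, so the exon lies on the cytoplasmic side of it.

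Ntrk2, which encodes TrkB, chose differently among 3 ends of the receptor. From the donor of a shared coding exon, splicing can reach an exon only 76 nt downstream, an exon 53760 nt downstream that ends the protein early, or an exon 107539 nt downstream that leads to the tyrosine kinase. In the authors' deposited table the junction to the truncated end had a log2 fold of -0.31 and the junction to the kinase form 0.23 (p = 0.0302 for each). The junction to the end directly downstream had a log2 fold of 1.11 with an empty p in the authors' deposited table, so no call is possible for it. Between the ends with a p, the direction was from the truncated towards the kinase form, and both folds are small. The end directly downstream also gives a form without the kinase. No net shift towards the kinase form can therefore be stated.

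The Ntrk2 ends printed above give proteins of very different reach. Ntrk2-201 has 821 residues, of which 356 follow the shared exon, with the catalytic HRD motif of the kinase at residue 673. Ntrk2-202 has 476 residues and ends 11 residues after the shared exon, without the kinase. This is the truncated TrkB that binds BDNF but has no kinase. Ntrk2-205, the form of the nearest end, has 492 residues, 27 of them after the shared exon, and also lacks the HRD motif. All of these forms hold the same hydrophobic stretch at residues 435 to 453. The deposited event lists 3 ends, while the gene models hold further truncated forms, Ntrk2-208 and Ntrk2-209, which have no junction in it.

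**Figure D2:**
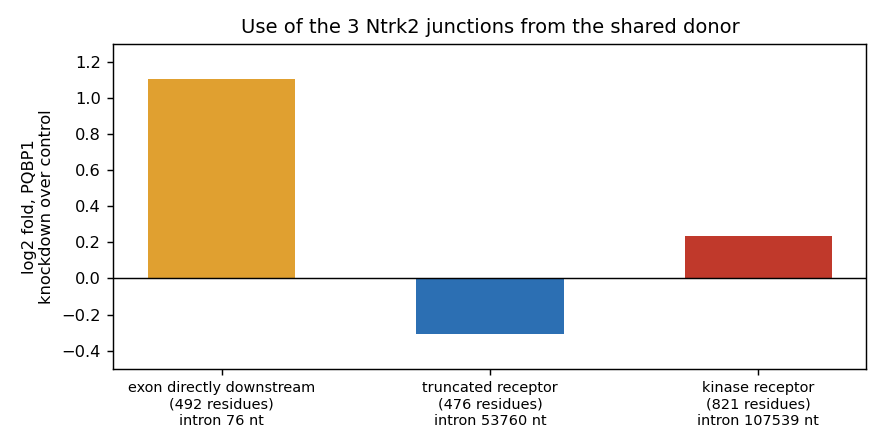
Authors' log2 fold, knockdown over control, of each Ntrk2 junction from the shared donor, by the end it leads to, with the protein and intron length under each bar. The truncated end is below 0 at -0.31 and the kinase end above it at 0.23. The nearest end, at 1.11, has no p and also leads to a form without the kinase.

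The receptor phosphatases Ptprk and Ptpru changed in different ways. Both are transmembrane proteins of the same subfamily of receptor tyrosine phosphatases. Ptprk included less of a 30 nt exon: the authors' deposited table gives log2 folds of -0.29 for the inclusion junction and 0.57 for the skipping junction (p = 0.0484). The inclusion ratio was 0.548 times that of the mock knockdown. This p is close to the limit of the list, and the event ranks 563 of 585.

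The Ptprk exon is annotated in 1 transcript, Ptprk-202, where it touches residues 777 to 787 of 1471. It follows the hydrophobic stretch at residues 756 to 774 almost directly, and the catalytic motif of the first phosphatase domain comes later, at residue 1113. The segment is thus in the part of the receptor just inside the membrane.

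Ptpru had the widest change of the members, an exchange between donors 9 nt apart. In the authors' deposited table the junction from the annotated donor had a log2 fold of 1.10 and the junction from the inner donor -1.65 (p = 0.0022). The ratio of the annotated to the inner donor was 6.74 times that of the mock knockdown, the third largest change of the 408 events with 2 junctions. The inner donor is not in the gene models. Its position in the printed exon is where the capitals begin, and these start with GT, the bases with which almost all introns begin. Use of the inner donor removes 3 codons, residues 993 to 995 of the 1446 residues of Ptpru-201. These precede the HCSAG motif of the phosphatase domain at residue 1084. The motif was found by sequence alone, and whether Ptpru acts as a phosphatase was not examined. How much each junction was used is not given. Both folds are large, as the annotated junction had 2.15 times and the inner junction 0.318 times its use in the mock knockdown. If the folds are changes in shares of the event, the inner junction was not rare in the mock knockdown. The sources do not say that they are, so the size of the change in the message is not known.

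**Figure D3:**
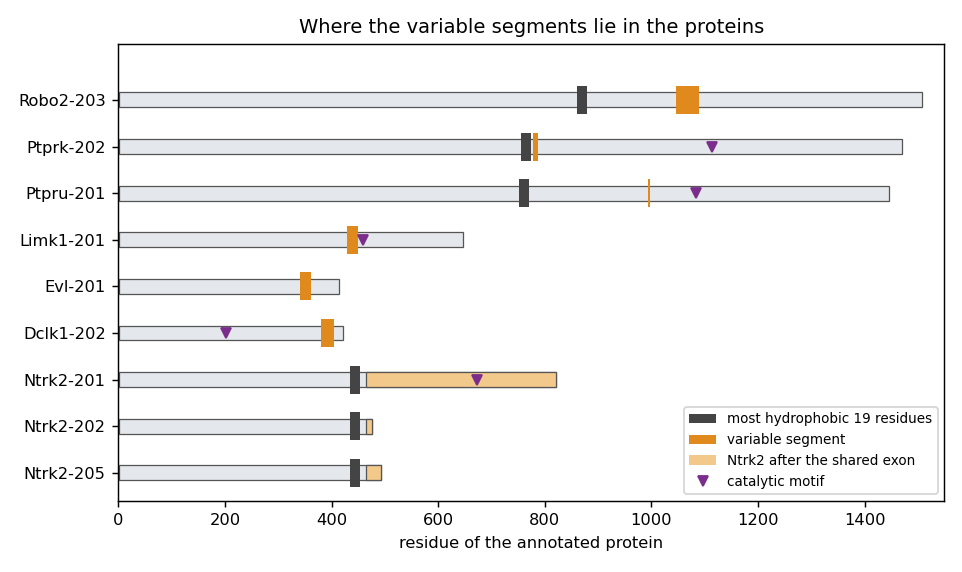
Annotated proteins drawn to scale by residue, with the most hydrophobic 19 residues (black), the segment that the event adds or removes (orange), the part of Ntrk2 after the shared exon (light orange) and the catalytic motif of kinase or phosphatase (triangles). The variable segments of Robo2, Ptprk and Ptpru all lie after the hydrophobic stretch. The motifs were found by sequence alone, and activity was not examined.

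The ligand Sema4d changed outside its coding region. Sema4d is a membrane-bound semaphorin that signals through plexin-B receptors. In the authors' deposited table the junction from a 64 nt exon at chr13:51734507-51734570 into the exon that holds the start codon was at 1.63 on the log2 scale. The competing junction, from an exon farther upstream, was at -0.33 in the authors' deposited table, with the same p of 0.0262. The ratio was 3.90 times that of the mock knockdown. Most of this lies in the junction from the 64 nt exon, and how rare that junction was is not given. A large ratio change of a rare junction can be a small change of the message. All 3 complete coding transcripts have the same start codon position, 51725329, and encode 861 residues, so the choice alters the 5' UTR and not the protein. The 64 nt exon holds 1 ATG triplet. In 4 transcripts it is an internal exon, and in Sema4d-202 the same donor ends a first exon of 257 nt. The junction fits either form, so inclusion of a cassette exon and use of another first exon cannot be told apart here.

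Of the effectors, Limk1 and Evl moved towards skipping and Dclk1 towards inclusion. Limk1 is the kinase that inactivates cofilin and so stabilizes actin filaments. In the authors' deposited table the log2 fold was -0.18 for the junction into its 60 nt exon and 1.18 for the junction that skips it (p = 0.0158). The inclusion ratio was 0.390 times that of the mock knockdown. Most of this lies in the skipping junction, which is not in the gene models although both of its splice sites are. How rare this junction was is not given, so, as in Sema4d, the change of the message can be small. The exon encodes 20 residues, 429 to 448 of 647 in Limk1-201, in the kinase domain ahead of the HRD motif at 458 and the DFG motif at 478. Its frame is kept when it is skipped.

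Evl, an Ena/VASP protein that promotes actin filament growth at the leading edge, had the smallest change of the members. In the authors' deposited table the log2 fold of its 63 nt exon was -0.35 at the inclusion junction and 0.18 at the skipping junction (p = 0.00987). The inclusion ratio was 0.691 times that of the mock knockdown, and 1.23% of all events with 2 junctions had a smaller change. Evl-201 with the exon has 414 residues and Evl-202 without it 393. The 63 nt add 21 codons near the C terminus, where residues 340 to 361 of Evl-201 are touched and 53 follow.

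Dclk1, a doublecortin-like kinase that binds microtubules, took up more of a 74 nt exon, which is listed from both of its sides. With the shared acceptor the authors' deposited table gives a log2 fold of 0.71 to the inclusion junction and -0.32 to the skipping junction (p = 0.000103), a ratio of 2.04 times. With the shared donor the authors' deposited table gives 0.55 to inclusion and -0.28 to skipping (p = 0.00106), a ratio of 1.78 times. The estimates differed by 0.20 on the log2 scale. Over all 53 cassette exons listed from both sides, the directions matched in 53 and the median gap was 0.10. The gaps of Dclk1 and Robo2 (0.38) are above that median. Both listings of an exon share the skipping junction and the samples, and the folds of each event have opposite signs. A match in direction was therefore nearly fixed in advance and is no separate support.

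The Dclk1 exon is the only coding cassette exon of the members whose length is not a multiple of 3, and it alters the C terminus. Where it is spliced to the last exon, as in Dclk1-202 and Dclk1-213, that exon is read in another frame and ends earlier than in the forms that skip it. The coding part of the last exon follows, with the stop codons of the 2 frames in capitals: the first, TGA, ends Dclk1-202 and Dclk1-213, and the second, TAA, ends the forms that skip the 74 nt exon.
Dclk1 last exon, chr3:55533570-55533734, plus strand: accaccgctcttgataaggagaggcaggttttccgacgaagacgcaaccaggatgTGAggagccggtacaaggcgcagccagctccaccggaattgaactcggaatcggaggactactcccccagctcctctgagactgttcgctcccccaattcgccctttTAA
After the exon shared by both forms, 43 residues follow in Dclk1-202, with the cassette exon, and 54 in Dclk1-207, without it. In Dclk1-215 the exon runs on into its own end without splicing to the last exon, and 73 residues follow; this form shares the junction into the exon but not the junction out of it. The tails of Dclk1-202 and Dclk1-207 come after the HRD motif of the kinase, at residue 202 in each. The annotated forms with the exon (Dclk1-202, Dclk1-213 and Dclk1-215) have 421 to 452 residues and lack the doublecortin part, while the exon-free forms include the long proteins of 739 and 756 residues. Junctions do not show which start a message had, so the table does not say which of these proteins changed.

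Over the 9 member events with 2 junctions, 4 moved towards the nearer junction (44.4%) and 5 towards the farther one. The background is close to this: 42.9% of all 408 such events moved towards the nearer junction. The size of the change had a median of 1.33 on the log2 scale in the members (range 0.53 to 2.75), against 1.36 over all events. All 20 member junctions with a p were under 0.05, against 76.2% of the 1389 junctions with a p. Nothing is read from this share: the junctions of a 2-junction event have the same p, and 9 of the 10 member events are of that kind, against 408 of 585 in the table.

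**Figure D4:**
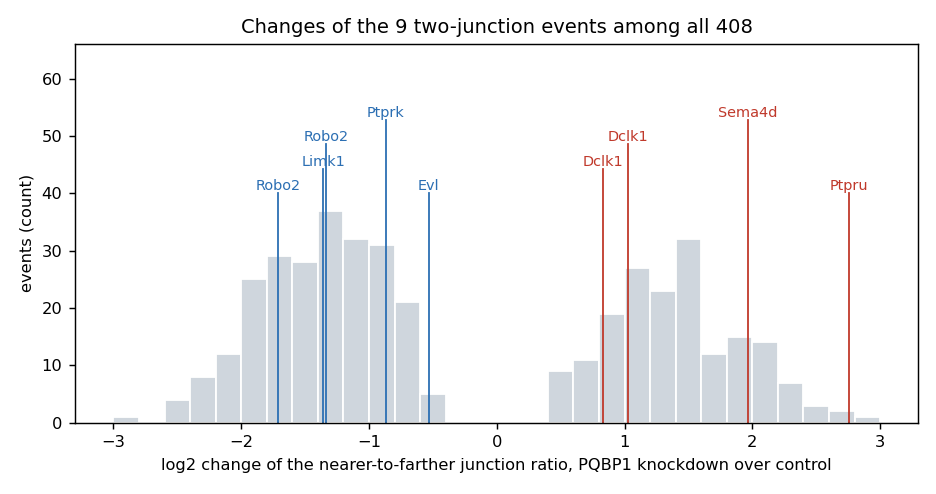
Histogram of the log2 change of the nearer-to-farther junction ratio, knockdown over control, over all 408 events with 2 junctions, with the member events as lines (red higher, blue lower). The members run from Robo2 at -1.71 to Ptpru at 2.75. Events of other genes lie below Robo2, such as those of Ablim1 at -1.91 and -1.99. No event lies within 0.444 of 0, the smallest change in the list.

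Exon features were not used to choose the members. The 6 member cassette exons had 30 to 126 nt, with a median of 63.5 nt, against 90 nt over the 224 cassette exons of the table (interquartile range 57 to 123.5 nt). Their GC content ran from 45.9% in Dclk1 to 60.3% in Evl, with a median of 50.4% against 51.5%. The exons of Robo2 (49.2%), Ptprk (46.7%), Limk1 (56.7%) and Evl (60.3%) were included less in knockdown. The exon of Dclk1 (45.9%) was included more. The junction out of the Sema4d exon (51.6%) was used more, which may be that exon or the longer first exon. A length that is a multiple of 3 was found in 4 of 6 exons, against 66.1% of all, and the last bases were AG, the usual exon end, in 4 of 6, against 57.1%. The exceptions were Ptprk, which ends in CCT, and Limk1, which ends in ATG. The differences from the whole list were not tested.

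**Figure D5:**
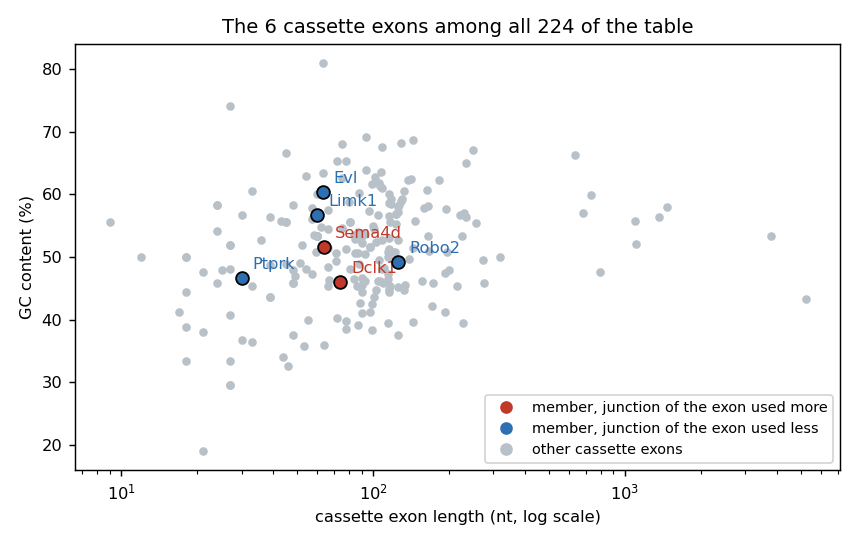
GC content against length (log axis) of the 224 cassette exons of the table, each counted a single time. The 6 member exons are coloured by direction, red where the junction of the exon was used more and blue where it was used less in knockdown, and lie among the other exons. For Sema4d this junction also fits a longer first exon.

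In a wider list of 188 axon guidance genes, members included, 15 had a listed event: 2 of 46 ligands, 5 of 62 receptors and 8 of 80 effectors. The 7 genes that are not members are Sema4c, Ptpra, Dclk2, Ablim1, Chn1, Farp1 and Mical3. Of the 13 events with 2 junctions in the whole list, 6 moved towards the nearer junction and 7 towards the farther one, again near the 42.9% of all events. The table does not say how many genes were expressed highly enough to be tested, so these counts do not measure how often guidance genes change.

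Dclk2, Ptpra and Sema4c are relatives of members. Dclk2, a second doublecortin-like kinase, included more of an 81 nt exon, and the authors' deposited table has log2 folds of 0.18 at its inclusion and -0.79 at its skipping junction (p = 0.0278). Its ratio was 1.96 times that of the mock knockdown, against 2.04 and 1.78 times in Dclk1. Ptpra, a receptor phosphatase of another subfamily than Ptprk and Ptpru, included more of a 27 nt exon, at 1.60 times (p = 0.0132 in the authors' deposited table). Ablim1, an actin-binding LIM protein, skipped a 105 nt exon more. Its inclusion ratio was 0.266 times from the upstream and 0.252 times from the downstream side (p = 0.0374 and 0.0324 in the authors' deposited table). The log2 fold of the inclusion junction was only -0.11 from the upstream and -0.13 from the downstream side in the authors' deposited table. Most of the change thus lies in the skipping junction, and how rare that junction was is not given. As in Sema4d and Limk1, a large ratio change of a rare junction can be a small change of the message.

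The other 4 have events with 3 junctions. In Sema4c, a relative of Sema4d, the choice includes acceptors 3 nt apart. The nearer of this pair had a log2 fold of 0.65 (p = 0.0276) and the farther -0.29 (p = 0.116) in the authors' deposited table. The remaining junction, with the shortest intron, had -1.76 in the authors' deposited table, the largest fold of the event in size, with a p of 0.135. In Chn1, a Rac-regulating chimaerin, a junction that is not annotated had a log2 fold of 2.13 (p = 0.0445) and the junction with the longest intron -1.79 (p = 0.0403) in the authors' deposited table. Farp1, a FERM-domain protein, had log2 folds of 0.71 (p = 0.015) and -0.25 (p = 0.0143) for its annotated junctions in the authors' deposited table. Mical3, an actin-oxidizing enzyme of the family that acts below plexins, had 1 junction with a p under 0.05, an unannotated one with a log2 fold of -1.71 (p = 0.0464) in the authors' deposited table.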

How the data were processed

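PolyA RNA of 2 PQBP1 knockdown and 3 mock knockdown samples was sequenced. The submitters' processing notes name TopHat2 2.0.4 and mm10. The junction counting, the test and the filters are not stated in the sources used here. Per the file headers, the authors deposited for each junction a log2 fold, knockdown over control, and a p-value. The p-value is taken as unadjusted. In all 408 events with 2 junctions both p agree (relative tolerance 1e-06) and the folds have opposite signs, so folds were read as relative use. The depth per sample is unknown.

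Gene names were filled down from the row that opens each event, and 1 event has none. Introns run from start + 1 to end + 1, and 84.1% equal a GENCODE M21 intron. Events were typed on those models, the code was tested on simulated events, and proteins were translated with Biopython 1.88. Membrane spans are the most hydrophobic 19 residues after residue 40. All members and every listed gene with an event are named. Members and lists were chosen with earlier results of these data known. Alternatives were a stricter p, annotated junctions, each exon counted a single time and a minimum change.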

Additional observations from a re-analysis of the deposited data

How the results depend on the processing

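The count of member events that moved towards the nearer junction, 4 of 9, was 3 with p under 0.01 (of 6), with annotated junctions alone (of 7), with each exon counted a single time (of 7) and with a log2 change of at least 1 (of 6). For the wider list, 6 of 13, it was 3 of 6 with p under 0.01, and 5 with annotated junctions (of 11) and with each exon counted a single time (of 10). Of the 21 member junctions, 20 had p under 0.05, 12 had p under 0.01 and 12 passed Benjamini-Hochberg adjustment over the listed junctions, which were already selected by p. The adjusted p was above 0.05 for Limk1 (0.0557), Sema4d (0.0621), Ntrk2 (0.0628) and Ptprk (0.0654). Taking the larger fold alone cannot turn the direction of the 9 member changes, since the folds of each event have opposite signs. It made all 9 smaller, by over 1.5 times in Ptpru (1.65 in place of 2.75), Robo2 with the shared acceptor (-0.79 in place of -1.33), Ptprk (-0.57 in place of -0.87), Evl (-0.35 in place of -0.53) and Dclk1 with the shared donor (0.55 in place of 0.83). Inclusion shares in each group were planned but not computed, because the sources do not say that the folds of an event add up to a whole. No paired analysis was possible because the table holds no value of any sample, so no sample could be left out either.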
